A study of Arabidopsis thaliana with 18 samples.

Results

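LEA18 (AT2G35300), HIS1-3 (AT2G18050) and SAG29 (AT5G13170) are 3 Arabidopsis thaliana genes that are known for their response to drying, and their transcripts were followed across 3 genotypes and 2 growth temperatures. They were chosen from earlier results of the same arrays, and are 3 of the 13355 genes that could be named from a probe set with 1 gene. Each has 1 probe set. LEA18 and HIS1-3 lie on chromosome 2 and SAG29 on chromosome 5.

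Total RNA came from whole seedlings after 10 days of growth on agar, under continuous light and after 3 days of cold treatment of the seed at 4 °C. The genotypes were wild-type Columbia (WT) and the mutants elf3-7 and tfl1-1, each grown at 16 °C and at 23 °C. The series addresses flowering control by ambient temperature, in which ELF3, known from the plant clock, and the flowering repressor TFL1 take part. Each of the 6 groups held 3 biological replicates, lettered A, B and C, with RNA prepared separately, and each RNA was hybridised to an Affymetrix array. Each mutant is represented by a single allele, and the 18 arrays hold whole seedlings, so less RNA per cell and fewer cells with the RNA cannot be told apart. No probe set was named ELF3 or TFL1, so the genotypes were not checked on the arrays.

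LEA proteins (late embryogenesis abundant) are very hydrophilic proteins that gather in drying seeds and in leaves short of water, where they are thought to protect membranes and other proteins, and LEA18 is one of the group 4 members. HIS1-3 encodes a variant of linker histone H1, the histone that binds the DNA between nucleosomes, and is the H1 gene of Arabidopsis that drought and the hormone abscisic acid induce. SAG29, also called SWEET15, encodes a plasma membrane sugar transporter of the SWEET family that rises in ageing leaves and under osmotic stress. Abscisic acid, made when water is short, is known to raise the transcripts of many genes of this kind.

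Expression is given on the log2 scale, 1 value per probe set, so a difference of 1 is a doubling, and levels of different genes cannot be set against each other. A difference was called when its limma adjusted p was under 0.05. In the comparisons from which a gene was chosen, its difference is a description and has no p.

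The arrays of replicate C stood apart from those of A and B. The 24 probe sets for the Bacillus control transcripts, which are not plant RNA, were bright there, with a mean of 5.70 ± 0.73 (SD over 6 arrays), and dim in the 12 remaining arrays, with a mean of 3.21 ± 0.04. The gap between 3′ and 5′ probe sets of actin and GAPDH, which widens as RNA or its labelling gets poorer, was 2.28 ± 0.34 in replicate C and 1.28 ± 0.14 in A and B. Replicate C holds 1 array of every group, and differences are given with and without it where it matters. Correlations between arrays of a group ran from 0.954 to 0.995. The 3 leaf markers measured had a summed log2 level of 14.45 to 14.86 over the 18 arrays and the 6 root markers of 11.93 to 12.95, while the 2 seed markers stayed at 4.24 to 4.65. The root sum mostly follows its brightest markers, such as PYK10 (11.18 to 12.39), and dimmer ones varied far more. The root marker AT5G17820 ran from 3.73 in tfl1-1 at 23 °C to 9.63 in elf3-7 at 16 °C, so even root content is not shown.

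LEA18 was lowest in elf3-7, above all at 16 °C. At 16 °C its values in replicates A, B and C were 7.13, 6.23 and 6.78 in WT, 3.50, 4.09 and 4.00 in elf3-7, and 6.05, 6.01 and 5.94 in tfl1-1. No elf3-7 array reached the lowest array of either other genotype, as the rule that chose the gene required. The difference of elf3-7 from WT was -2.85 ± 0.45 (SE, n = 3) on the log2 scale, a 7.20-fold lower level, and from tfl1-1 it was -2.13 ± 0.45, 4.39-fold lower. LEA18 was chosen from both of these comparisons, so they carry no test. In elf3-7 the 16 °C level was close to that of the dim Bacillus controls, whose highest single value in A and B was 4.64, so the size of the difference is uncertain and can be an underestimate.

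At 23 °C LEA18 stood at 7.10, 6.86 and 6.97 in WT, at 4.83, 4.97 and 7.00 in elf3-7, and at 7.23, 6.06 and 7.04 in tfl1-1. The replicate C array of elf3-7 was as high as the WT arrays, while A and B were well below them. That array also had the highest Bacillus control mean of all, 6.67, and a gap between 3′ and 5′ controls of 2.55, and their part in its LEA18 value was not tested. Over all 3 arrays the difference of elf3-7 from WT was -1.38 ± 0.45, and this was not called (adjusted p = 0.805). Without the elf3-7 replicate C array the difference was -2.08 and was called (adjusted p = 0.0347), and with A and B alone in every group it was also -2.08 and not called (adjusted p = 0.0954). Against tfl1-1 the difference of elf3-7 was -1.18 ± 0.45 (adjusted p = 0.21). It was called with A and B alone (-1.75, adjusted p = 0.0142) and without the elf3-7 replicate C array (-1.88, adjusted p = 0.0163). With A and B alone 4087 of all 22746 probe sets were called in that comparison, beside 51 with all arrays. Each of these fits leaves out the highest elf3-7 array at 23 °C, which was bound to lower the elf3-7 mean. The elf3-7 arrays at 23 °C also took part in the temperature comparison that chose LEA18. The calls from these fits are therefore no separate support, and the count over all probe sets without that array alone is not given.

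Between the temperatures LEA18 could be tested in WT and tfl1-1, while the elf3-7 comparison chose the gene and is a description. The 16 °C arrays of WT and tfl1-1 took part in the genotype comparisons that chose LEA18, so these tests are not independent of the choice. In WT the 23 °C mean was 0.26 ± 0.45 above the 16 °C mean (adjusted p = 0.788, 95% interval -0.70 to 1.22), with overlapping arrays. In elf3-7 it was 1.74 ± 0.45 above, 3.33-fold, and the rule that chose it required arrays without overlap. That size rests on replicate C, since A alone gave 1.32, B 0.88 and C 3.00, and leaving out the 23 °C replicate C array brought it to 1.03. In tfl1-1 the difference was 0.78 ± 0.45 (adjusted p = 0.309), without overlap between its arrays. The elf3-7 response minus the WT response was 1.47 ± 0.64, and 0.81 ± 0.54 with A and B alone. It is a description only, since both the elf3-7 temperature difference and the 16 °C genotype difference that chose LEA18 are part of it.

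HIS1-3 had its highest values at 23 °C in each genotype and its lowest in elf3-7 at 16 °C. Its values in A, B and C were 5.88, 5.37 and 5.57 at 16 °C and 8.01, 7.10 and 6.52 at 23 °C in WT. In elf3-7 they were 3.62, 4.22 and 4.33 at 16 °C and 6.41, 5.08 and 6.34 at 23 °C. In tfl1-1 they were 6.22, 6.64 and 6.38 at 16 °C and 9.24, 9.38 and 7.37 at 23 °C. In WT all 23 °C arrays lay above all 16 °C arrays, and the same held in both mutants, where the choice of the gene required it. The tfl1-1 arrays A and B at 23 °C were the highest of the 18.

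The 23 °C mean of HIS1-3 was higher by 2.25 ± 0.49 in tfl1-1, 4.74-fold, and 1.89 ± 0.49 in elf3-7, 3.70-fold, and both are descriptions. The WT comparison did not choose the gene. There the 23 °C mean was 1.61 ± 0.49 higher, 3.04-fold, in 3 of 3 lettered pairs, without a call (adjusted p = 0.0646, 95% interval 0.56 to 2.66). The arrays did not overlap, and the difference exceeded the 1.325 of the smallest rise the rule picked in WT. A call would therefore have chosen HIS1-3, so the missing call was fixed by the rule. Same-lettered arrays deviated together in this comparison, and with the letter as a block the difference was called (1.61, adjusted p = 0.0427). It was also called with replicates A and B alone (1.93, adjusted p = 0.0219). The block called 3157 of all 22746 probe sets in WT and A and B alone 2592, beside 1549. The difference was smaller for replicate C than for the other letters in WT, at 0.96 against 1.93, and in tfl1-1, at 0.99 against 2.88, but not in elf3-7, at 2.01 against 1.83. In tfl1-1 at 23 °C the replicate C array had a Bacillus mean of 5.69 and the widest gap between 3′ and 5′ controls, 2.74, and their part in its HIS1-3 value was not tested.

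The HIS1-3 response minus that of WT was 0.28 ± 0.70 in elf3-7 and 0.64 ± 0.70 in tfl1-1, and the elf3-7 response minus the tfl1-1 response was -0.36 ± 0.70. All of these contain a mutant response from which HIS1-3 was chosen, so they are descriptions, and each is smaller than its SE.

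Between genotypes HIS1-3 ranked tfl1-1, WT and elf3-7 at both temperatures. The difference of elf3-7 from tfl1-1 was -2.36 ± 0.49 at 16 °C, 5.12-fold lower, and -2.72 ± 0.49 at 23 °C, 6.57-fold lower, and both are descriptions. At 23 °C the gap was -2.82 in A, -4.30 in B and -1.03 in C. Against WT, the elf3-7 differences were -1.55 ± 0.49 at 16 °C (adjusted p = 0.404) and -1.27 ± 0.49 at 23 °C (adjusted p = 0.941), with no overlap between arrays at either temperature and no call. For tfl1-1 against WT the differences were 0.81 ± 0.49 at 16 °C (adjusted p = 0.73) and 1.45 ± 0.49 at 23 °C (adjusted p = 0.465), also without a call. Except for tfl1-1 at 23 °C, where arrays overlapped, a call against WT would have chosen HIS1-3, so the missing calls were fixed by the rule. Without the 23 °C replicate C array of tfl1-1 its 23 °C difference from WT was 2.09 and was called (adjusted p = 0.0164). That array was the lowest of its group, so leaving it out was bound to widen the difference. The tfl1-1 arrays at 23 °C also took part in comparisons that chose HIS1-3. This call is therefore no separate support, and the count over all probe sets in that fit is not given. In elf3-7 at 16 °C the level of HIS1-3, with a mean of 4.06 ± 0.38, was close to the dim Bacillus controls too, so these sizes are uncertain as well.

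SAG29 went the other way between genotypes and was highest in elf3-7 at both temperatures. At 16 °C the values in A, B and C were 5.02, 4.54 and 4.87 in WT, 6.86, 7.29 and 6.25 in elf3-7, and 5.89, 4.91 and 5.09 in tfl1-1. At 23 °C they were 5.33, 5.05 and 5.46 in WT, 6.24, 6.60 and 6.33 in elf3-7, and 5.24, 5.26 and 5.06 in tfl1-1. Every elf3-7 array was above every WT and tfl1-1 array of its temperature, which the choice of the gene required at 16 °C and not at 23 °C. At 16 °C elf3-7 was 1.99 ± 0.26 above WT, 3.97-fold, and 1.5 ± 0.26 above tfl1-1, 2.84-fold, and these comparisons chose the gene.

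The 23 °C comparisons did not choose SAG29. Only 1 gene higher in elf3-7 than in WT and 2 higher than in tfl1-1 met the rule there. With no overlap of arrays in either, a call would have chosen SAG29, so the missing calls were fixed by the rule. At 23 °C elf3-7 was 1.11 ± 0.26 above WT, 2.16-fold, in 3 of 3 lettered pairs. This was not called after adjustment over all probe sets (adjusted p = 0.586, unadjusted p = 0.00069, 95% interval 0.56 to 1.67). It was 1.20 ± 0.26 above tfl1-1, 2.3-fold, also in 3 of 3 pairs and without a call (adjusted p = 0.0619). The latter was called with A and B alone (1.17, adjusted p = 0.0273), with the letter as a block (1.20, 0.0366) and with replicate C as a block (1.20, 0.0331). In these alternatives 4087, 612 and 607 of all 22746 probe sets were called in that comparison, beside 51. The excess over tfl1-1 was similar in all letters, at 1.00 in A, 1.34 in B and 1.27 in C.

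SAG29 was not called between the temperatures in any genotype. The 23 °C mean minus the 16 °C mean was 0.47 ± 0.26 in WT (adjusted p = 0.314, 95% interval -0.09 to 1.02), -0.41 ± 0.26 in elf3-7 (adjusted p = 0.391) and -0.11 ± 0.26 in tfl1-1 (adjusted p = 0.842). In WT all 23 °C arrays were above all 16 °C arrays, and in both mutants the arrays overlapped. The elf3-7 response minus the WT response was -0.88 ± 0.37, a description only, since it contains the 16 °C difference from which SAG29 was chosen.

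**Figure D1:**
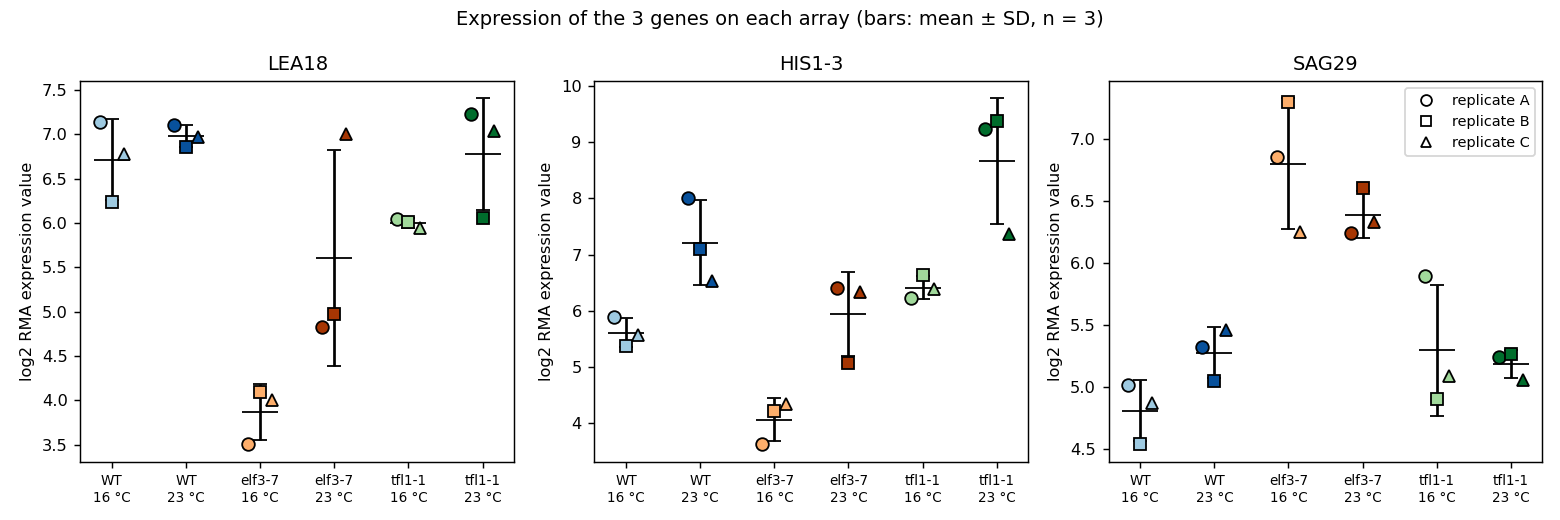
Log2 expression value (y axis) of LEA18, HIS1-3 and SAG29 on each of the 18 arrays by genotype and temperature (x axis). Marker shapes show replicates A, B and C, and horizontal lines with bars show the mean ± SD of 3 arrays. LEA18 and HIS1-3 are lowest in elf3-7 at 16 °C, with means of 3.87 and 4.06, and SAG29 is highest there, with a mean of 6.80.

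The order of the 6 groups differed between the genes. For LEA18 the means fell from WT at 23 °C (6.98 ± 0.12) through tfl1-1 at 23 °C (6.78 ± 0.63), WT at 16 °C (6.72 ± 0.45), tfl1-1 at 16 °C (6.0 ± 0.06) and elf3-7 at 23 °C (5.6 ± 1.22) to elf3-7 at 16 °C (3.87 ± 0.32). In that order, neighbours without overlap were only WT and tfl1-1 at 16 °C, and elf3-7 at 23 °C and at 16 °C. For HIS1-3 the order was tfl1-1 at 23 °C (8.66 ± 1.12), WT at 23 °C (7.21 ± 0.75), tfl1-1 at 16 °C (6.41 ± 0.21), elf3-7 at 23 °C (5.94 ± 0.75), WT at 16 °C (5.61 ± 0.26) and elf3-7 at 16 °C (4.06 ± 0.38). Only elf3-7 at 16 °C was clear of its neighbour. For SAG29 it was elf3-7 at 16 °C (6.80 ± 0.53), elf3-7 at 23 °C (6.39 ± 0.19), tfl1-1 at 16 °C (5.30 ± 0.53), WT at 23 °C (5.28 ± 0.21), tfl1-1 at 23 °C (5.19 ± 0.11) and WT at 16 °C (4.81 ± 0.25). The gap between the elf3-7 groups and the rest was free of overlap, as was the last step down to WT at 16 °C.

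Over the 18 arrays LEA18 and HIS1-3 went together (r = 0.69), and SAG29 ran against LEA18 (r = -0.75) and against HIS1-3 (r = -0.55). These correlations come from the differences between groups, which partly chose the genes. After each group's mean was taken off, they were 0.15, 0.06 and -0.10, so that within a group an array with more LEA18 did not regularly have more HIS1-3.

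**Figure D2:**
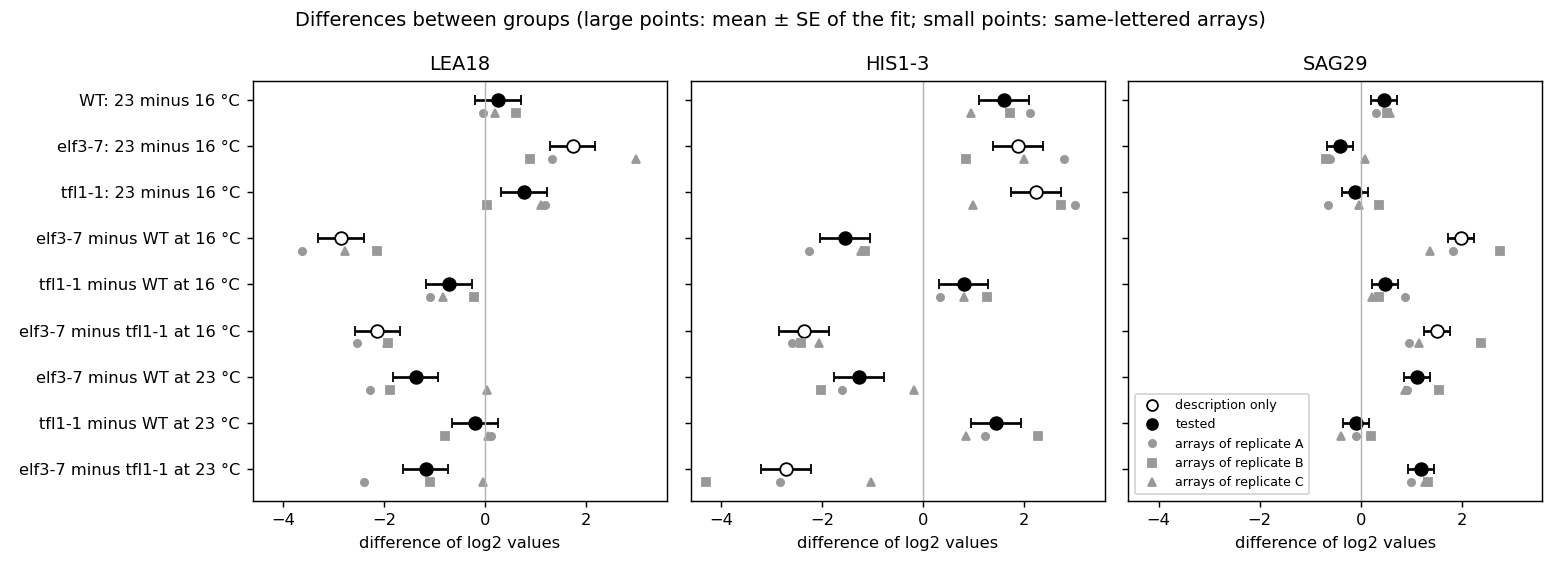
Difference of log2 values (x axis) of each gene in the 9 pairwise comparisons (y axis), as the mean difference ± SE of the limma fit (large points) and the difference between same-lettered arrays (small grey points). Open points are differences the genes were chosen from and filled points are tested ones. The LEA18 difference of elf3-7 against WT at 23 °C is near 0 in replicate C (0.03) and -2.28 and -1.88 in A and B.

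The choice of the genes can be placed in the whole set of probe sets. Of 22746 probe sets, 6.81% were called between the temperatures in WT (2.83% higher and 3.98% lower at 23 °C), 4.87% in elf3-7 (2.55% and 2.32%) and 9.16% in tfl1-1 (3.98% and 5.18%). Between elf3-7 and WT at 16 °C 0.268% were called (0.154% higher and 0.114% lower in elf3-7), and between elf3-7 and tfl1-1 2.55% (1.14% and 1.4%). At 23 °C the shares were 0.0308% for elf3-7 against WT, 0.0352% for tfl1-1 against WT and 0.224% for elf3-7 against tfl1-1 (0.11% and 0.114%). In the other 4 comparisons, tfl1-1 against WT at 16 °C and the 3 differences in response, limma called 0 probe sets (0%), and 1717, 542, 821 and 1284 had an unadjusted p under 0.05. In the pairwise comparisons that did not choose them, none of the 3 genes was called. This was largely fixed by the rule, since a call among the largest differences without overlap would itself have chosen the gene. The genes were taken from the up to 10 largest called differences with a gene symbol in each direction. In elf3-7 between the temperatures HIS1-3 had rank 4 and LEA18 rank 6, and the last gene inside the limit had 1.46 and the next outside 1.41. In tfl1-1 HIS1-3 had rank 9, and these values were 2.12 and 2.07. Between elf3-7 and WT at 16 °C only 3 higher and 2 lower genes met the rule, and SAG29 and LEA18 led them.

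LEA18 had a close partner in AtLEA4-1 (AT1G32560), another group 4 LEA gene, whose values followed it most closely of 13354 genes over the 18 arrays (r = 0.954). Within groups r was 0.869, which is no separate support, since AtLEA4-1 was picked by its correlation on these same arrays. Both genes had their widest spread in elf3-7 at 23 °C, with SDs of 1.22 and 1.05, so that group weighs most in this r. In A, B and C, AtLEA4-1 stood at 7.57, 6.26 and 6.79 in WT at 16 °C and at 7.39, 7.07 and 7.10 at 23 °C. In elf3-7 it stood at 5.01, 4.74 and 4.2 at 16 °C and at 5.07, 5.11 and 6.92 at 23 °C. The high elf3-7 replicate C array at 23 °C was thus high for both genes. In tfl1-1 it stood at 6.74, 6.61 and 6.67 at 16 °C and at 7.53, 6.36 and 7.05 at 23 °C. At 16 °C the AtLEA4-1 difference of elf3-7 was -2.23 ± 0.44 from WT and -2.03 ± 0.44 from tfl1-1, beside -2.85 and -2.13 for LEA18. Whether probes of either gene also bind the other's transcript was not tested. The third group 4 gene, LEA4-5 (AT5G06760), named after its values were seen, was at -0.19 ± 0.25 between elf3-7 and WT at 16 °C (adjusted p = 0.971).

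**Figure D3:**
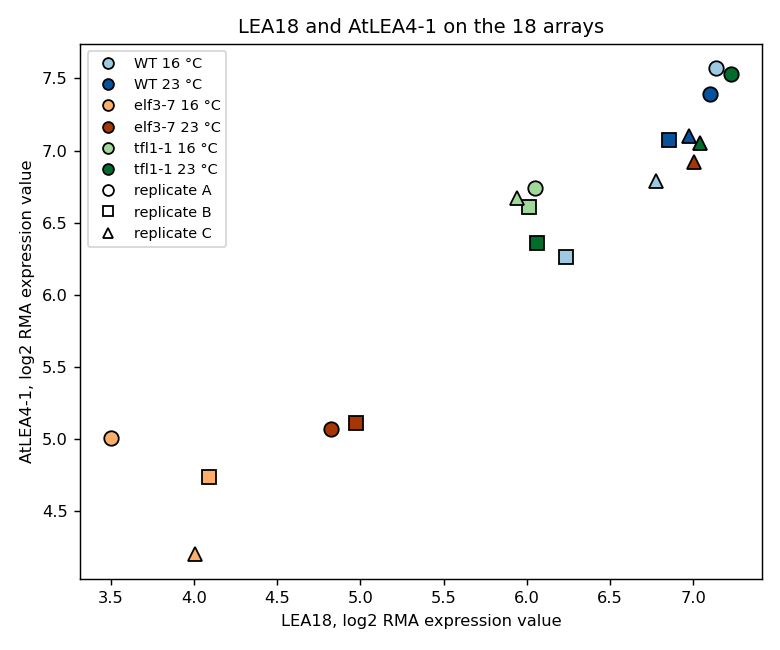
Log2 expression value of AtLEA4-1 (y axis) against that of LEA18 (x axis) on the 18 arrays, coloured by group, with marker shapes for the replicates. For LEA18 the elf3-7 arrays of replicates A and B at 23 °C (4.83 and 4.97) lie above those at 16 °C (3.50 to 4.09). For both genes they lie below all WT arrays, while replicate C (7.00 and 6.92) lies among the WT arrays.

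The next most similar genes to LEA18 were AT3G17520, which is on the LEA list (r = 0.894), and AT2G25890 (r = 0.890). For HIS1-3 they were AT2G46220 (r = 0.974), AT3G47250 (r = 0.967) and AT1G80180 (r = 0.965). AT2G46220 stood at 10.26 ± 0.22 in WT at 16 °C, 11.14 ± 0.26 at 23 °C, 9.49 ± 0.05 and 10.48 ± 0.57 in elf3-7, and 10.62 ± 0.13 and 11.74 ± 0.75 in tfl1-1. It kept the order of the HIS1-3 groups with smaller steps. The genes most like SAG29 were AT3G12900 (r = 0.889), AT1G80130 (r = 0.880) and AT1G52700 (r = 0.861). AT1G80130 stood at 7.86, 8.42 and 7.80 in elf3-7 at 16 °C and at 5.39, 5.62 and 5.32 in WT, a wider gap than that of SAG29. With A and B alone, AT2G46220 was again the first for HIS1-3 (r = 0.991), AtLEA4-1 the second for LEA18 (r = 0.955), and AT1G80130 the third for SAG29 (r = 0.897). Over 6 group means many genes fit about as well, and AT3G47250 ranked 127 for HIS1-3 there. All of these correlations share the 18 arrays and their group differences.

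**Figure D4:**
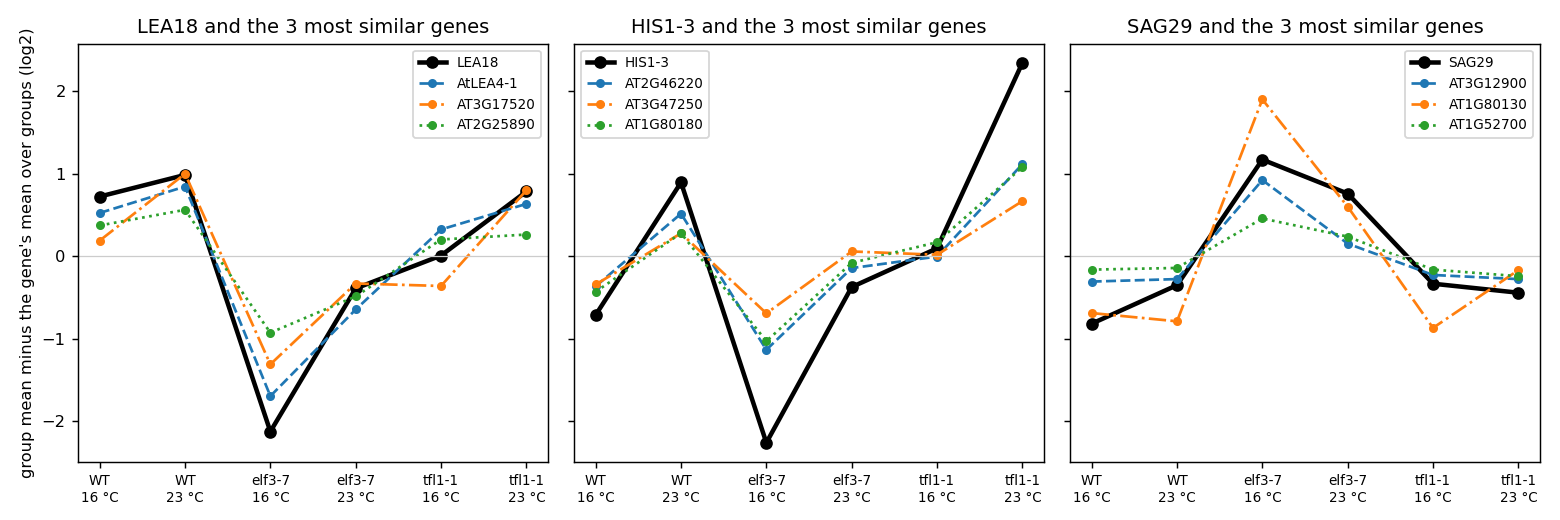
Group means on the log2 scale, each gene's mean over the 6 groups taken off (y axis), for LEA18, HIS1-3 and SAG29 (black) and the 3 genes with the highest correlation to each, over the 6 groups (x axis). AT1G80130 has a wider range than SAG29, and the genes most like HIS1-3 a narrower one.

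Of 48 other genes on the LEA list 34 were measured. Between elf3-7 and WT at 16 °C, where 0.268% of all probe sets were called, none of the 34 was called, and 1 was lower with the letter or replicate C as a block. Those blocks called 120 and 126 of all 22746 probe sets, beside 61. The median difference of the 34 was -0.17, beside 0.01 over all probe sets. Against tfl1-1 at 16 °C, where 2.55% of all were called, 3 were lower in elf3-7 and none was higher, namely COR15B (-2.46 ± 0.46, adjusted p = 0.0163), AtLEA4-1, and the dehydrin AT1G54410 (-0.79 ± 0.13, adjusted p = 0.00871). With the letter as a block, as the arrays deviated together there, 1 was higher and 3 were lower. That block called 1918 of all 22746 probe sets in this comparison, beside 579.

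Between the temperatures the called LEA genes of WT and elf3-7 all fell at 23 °C. In WT 3 of 34 fell and none rose, beside 6.81% called over all probe sets. With the letter as a block 7 fell, when 3157 of all 22746 probe sets were called. The 3 were LTI30 (-3.09 ± 0.35, adjusted p = 8.15e-04), a dehydrin known to be induced by cold, AT2G46140 (-2.49 ± 0.57, adjusted p = 0.0203) and AT2G23120 (-1.46 ± 0.23, adjusted p = 0.00455). In elf3-7, with 4.87% called over all probe sets, 3 fell and none rose, LTI30 (-2.11 ± 0.35, adjusted p = 0.00559), COR15A (-1.90 ± 0.39, adjusted p = 0.0148), a cold-regulated chloroplast protein, and AT4G38410 (-0.67 ± 0.15, adjusted p = 0.022). The count was 1 without the 16 °C B, 23 °C A or 23 °C C array of elf3-7, and 5, with 1 that rose, without 23 °C B. LTI30 kept its call without each array in all 3 genotypes and AT2G23120 in WT, while AT2G46140 in WT and AT4G38410 in elf3-7 lost theirs without 4 of 6 arrays in turn, and COR15A in elf3-7 without 3. In tfl1-1, with 9.16% called over all, 6 fell and 6 rose. LTI30 (-3.46), COR15B (-2.68), AT2G46140 (-2.35) and COR15A (-1.97) had the largest differences among those that fell, and those that rose did so by 0.65 to 1.92. The 6 that rose were dim, with tfl1-1 group means of 3.22 to 5.57 beside array medians of 5.49 to 5.62. When only probe sets brighter than the median one were tested they were left out, so the count of 0 there was fixed. The count fell to 1 without the 16 °C A or 23 °C A array and to 2 without 16 °C B or C. The medians of the list were 0.02 in WT and elf3-7 and 0.01 in tfl1-1, beside 0.05, 0.03 and 0.04 over all probe sets.

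**Figure D5:**
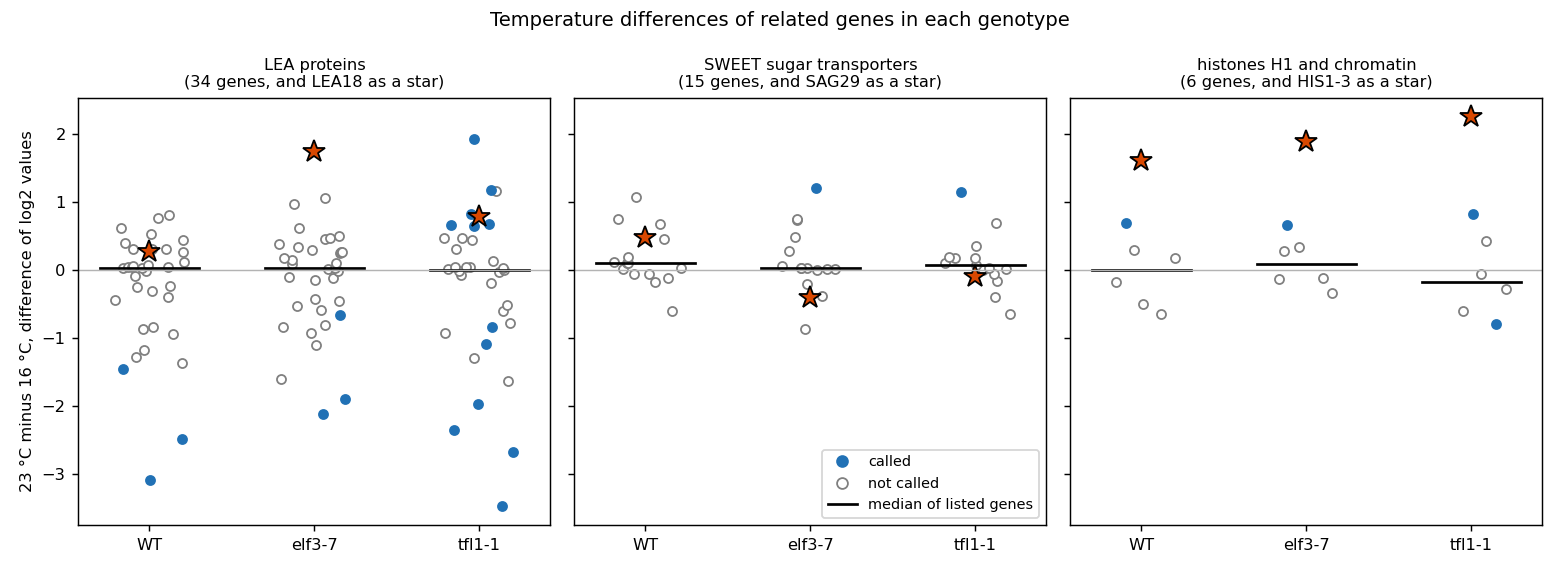
Difference of log2 values between 23 °C and 16 °C (y axis) in each genotype (x axis) for the genes on the LEA, SWEET and histone lists, with called genes filled, the list median as a line, and LEA18, SAG29 and HIS1-3 as stars. HIS1-3 is at 1.61, 1.89 and 2.25, the last 2 being values from which it was chosen, and the largest LEA differences are falls.

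Of the 15 other SWEET genes measured, none was called between elf3-7 and WT at 16 °C, beside 0.268% over all probe sets, and their median was 0.11. Against tfl1-1 at 16 °C SWEET14 was higher in elf3-7 by 0.51 ± 0.13 (adjusted p = 0.0477), and none was lower, beside 2.55% called over all probe sets. With the letter as a block, 1 was higher and 1 lower, when 1918 of all 22746 probe sets were called. Between the temperatures SWEET16, a sugar transporter of the vacuole membrane, rose by 1.21 ± 0.30 in elf3-7 (adjusted p = 0.0347) and by 1.14 ± 0.30 in tfl1-1 (adjusted p = 0.0297), and in WT it was at 0.75 ± 0.30 (adjusted p = 0.153). Each of these 2 calls was lost without 5 of its 6 arrays in turn. Over all probe sets 4.87% were called in elf3-7 and 9.16% in tfl1-1. SWEET2 in WT was at 1.07 ± 0.51 (adjusted p = 0.227, and 0.0374 with the letter as a block). With that block 2 genes rose in WT, and 2 rose and 1 fell in elf3-7. The block called 3157 of all 22746 probe sets in WT and 2920 in elf3-7.

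Of the 6 other genes on the list of linker histones and related chromatin genes, AT1G72740 rose at 23 °C in each genotype, by 0.69 ± 0.16 in WT (adjusted p = 0.024), 0.66 ± 0.16 in elf3-7 (adjusted p = 0.0343) and 0.83 ± 0.16 in tfl1-1 (adjusted p = 0.00861). The call held without each array in tfl1-1, and was lost without 4 of 6 in WT and in elf3-7. AT1G06760 fell in tfl1-1 (-0.79 ± 0.22, adjusted p = 0.0402), a call lost without 5 of 6 arrays and with equal array medians (adjusted p = 0.0619). With the letter as a block 1 gene of the list also fell in WT. Over all probe sets 6.81% were called in WT, 4.87% in elf3-7 and 9.16% in tfl1-1, and 3157 of 22746 in WT with that block. None of the 6 genes was called between elf3-7 and WT at 16 °C, beside 0.268% over all probe sets. The medians of the 6 genes between the temperatures were 0.00, 0.08 and -0.17 in WT, elf3-7 and tfl1-1, beside 0.05, 0.03 and 0.04 over all probe sets.

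Few other genes of drought, abscisic acid and senescence could be named. Of 68 on the drought and abscisic acid list only DI21 and RD2 were measured, and neither was called. DI21, named for its induction by drought, was at -1.37 ± 0.42 between 23 °C and 16 °C in WT (adjusted p = 0.0627), and fell with the letter as a block (adjusted p = 0.013). Of 7 other senescence genes none was called in WT or elf3-7 (1 rose in elf3-7 with the letter as a block, AT1G73480, by 0.62, adjusted p = 0.0484), and 2 rose in tfl1-1. These were ICL, the isocitrate lyase of the glyoxylate cycle (2.66 ± 0.62, adjusted p = 0.0182), and AT1G73480 (1.00 ± 0.20, adjusted p = 0.00917). The ICL call was lost without 3 of its 6 arrays in turn, and that of AT1G73480 held without each. Over all probe sets 9.16% were called in tfl1-1, and 2920 of 22746 in elf3-7 with the letter as a block. None of the 7 was called between elf3-7 and WT at 16 °C, beside 0.268% over all probe sets, and the median was -0.08. Of 6 root markers AT5G17820 fell in tfl1-1 at 23 °C (-3.36 ± 0.91, adjusted p = 0.0331), a call lost without 5 of 6 arrays in turn, and no leaf or seed marker was called between the temperatures.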

How the data were processed

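The authors deposited log2 RMA values, 1 per probe set and array; RMA is named in the submitters' processing notes, and its version is not given in the sources used here. RMA puts arrays on a common scale and understates differences of dim transcripts. Of 22810 probe sets, 64 controls were left out and 22746 tested; 13513 name 1 gene in the platform annotation. One model with 6 group means over 18 arrays was fitted with limma 3.58.1 (R 4.3.3), with empirical Bayes variances, two-sided tests and Benjamini-Hochberg adjustment within each of 12 comparisons, after a test of the code on simulated data. The number of arrays limits precision.

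The 3 genes and the gene lists were chosen with earlier results of these data known. A gene's difference has no p where a repeat of the earlier naming rule picks it: up to 10 per direction, called, with a symbol and no overlap of arrays. The same holds for a difference in response that contains such a comparison. Also named were up to 4 called genes per list and temperature comparison (up to 2 with the largest difference where none was called) and the 3 genes most correlated with each member. COR15B, AT1G54410 and SWEET14 between elf3-7 and tfl1-1, and LEA4-5, were named after their values were seen. The labels do not say what a replicate letter shares. Deviations of same-lettered arrays correlated above 0.1 in every pair in 5 comparisons: between the temperatures in WT (0.296 to 0.549) and in elf3-7 (0.344 to 0.619), elf3-7 against tfl1-1 at 16 °C (0.238 to 0.445), and elf3-7 (0.267 to 0.427) and tfl1-1 (0.187 to 0.622) against WT at 23 °C. Other scalings, a filter on dim probe sets, array weights, blocks, a robust prior, fits of the compared groups alone and fits without each array were run as alternatives.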

Additional observations from a re-analysis of the deposited data

How the results depend on the processing

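No difference of LEA18, HIS1-3 or SAG29 that was called, or that chose the gene, changed direction in any alternative. For HIS1-3 in WT between the temperatures (1.61, adjusted p = 0.0646) a call appeared with the dim filter (1.61, adjusted p = 0.0486), array weights (1.62, 0.0089), the replicate block (1.61, 0.0427), replicate C as a block (1.61, 0.0388) and A and B alone (1.93, 0.0219); without each array it ran from 1.21 to 1.95, and was called without the 23 °C replicate C array (0.0459). HIS1-3 in elf3-7 against WT at 16 °C was called with array weights (-1.74, adjusted p = 0.011). LEA18 in elf3-7 against WT at 23 °C ran from -2.08 to -0.99 without each array. SAG29 in elf3-7 against tfl1-1 at 23 °C was called with array weights (1.12, adjusted p = 0.0136), the replicate block (1.20, 0.0366), replicate C as a block (1.20, 0.0331), and without the tfl1-1 replicate C array (1.14, 0.0215); same-lettered arrays there correlated at 0.055 to 0.214, so not every pair was above 0.1. Array weights also gave calls for LEA18 in elf3-7 against tfl1-1 (-1.36, 0.0223) and HIS1-3 in tfl1-1 against WT (2.04, 0.00957) at 23 °C. The causes were not tested. The replicate block changed no other call of the 3 genes.

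Of the 34 LEA genes, 1 was lower in elf3-7 than in WT at 16 °C with the dim filter, array weights or either block, beside 0. The count that rose in WT was 1 with array weights, with replicate C as a block and with A and B alone, and the count that fell was 5 with array weights, 7 with the replicate block and 6 with replicate C as a block. In elf3-7 it was 6 that fell with array weights, 5 with replicate C as a block and 1 with only the compared groups, and without each array 1 to 5 fell and 0 to 1 rose. In tfl1-1 0 rose with the dim filter, which leaves out the genes that rose. With only the compared groups 1 rose in tfl1-1, and 1 to 5 without each array, and 10 fell with array weights. Over all probe sets the replicate block called 3157, 2920 and 4012 in WT, elf3-7 and tfl1-1 between the temperatures, beside 1549, 1107 and 2084, and 120 (61), 1918 (579) and 612 (51) for elf3-7 against WT and tfl1-1 at 16 °C and tfl1-1 at 23 °C. With replicate C as a block the 6 counts were 3196, 2948, 4034, 126, 1938 and 607, with array weights 3546, 4419, 7100, 537, 4822 and 4155, and with A and B alone 2592, 914, 4970, 50, 205 and 4087. The dim filter left 30 for elf3-7 against WT at 16 °C. For tfl1-1 against WT at 23 °C the count of 8 became 29 and 32 with the blocks, 1593 with array weights, 193 with A and B alone and 2 with the dim filter, and for elf3-7 against WT there 17 with A and B alone and 11 with replicate C as a block, beside 7. Array weights called 336 for tfl1-1 against WT at 16 °C, beside 0. Of the differences in response, array weights called up to 245 and A and B alone up to 29. Quantile normalization and equal medians moved the median difference by at most 0.06. No member or list gene had a second probe set to try.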
